A study of Homo sapiens with 28 samples.

Results

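The plasminogen activators PLAT and PLAU, the urokinase receptor PLAUR, the inhibitors SERPINE2 and SERPINB2 and the plasminogen receptor ANXA2 were examined, and 5 of these 6 genes had probe sets that carry 1 gene symbol. The genes were chosen as members of 1 pathway, with earlier results of these data known. SERPINB2, plasminogen activator inhibitor type 2, had no probe set with a symbol of its own in the annotation used and was not analysed here. The other 5 were read by 12 probe sets, and all 5 passed the filter on low signals, among 13808 of 19775 genes that did.

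The 786-O and A498 lines, both from human renal cell carcinoma, had been grown under the skin of female athymic nude/beige mice injected at 6 to 8 weeks of age, so stroma and vessels of the tumours are of mouse origin while the arrays carry human probes. The groups were 786-O tumours resistant to sorafenib (80 mg/kg, n = 5) with their untreated tumours (n = 5), 786-O tumours resistant to sunitinib (53.6 mg/kg, n = 4) with theirs (n = 5), and A498 tumours resistant to sorafenib (80 mg/kg, n = 5) with theirs (n = 4). The drugs are inhibitors of VEGF and PDGF receptor kinases, sorafenib also of RAF kinases, and were given by gavage on 6 days of each week once tumours measured 12 mm. Mice were killed at that size without treatment or at 20 mm, but which size the untreated arrays stand for is not stated, so size and drug exposure cannot be told apart. Each of the 28 tumours was measured on 1 human Affymetrix HG-U133 Plus 2.0 array, and the number of arrays limits the precision. The comparison asks which parts of the plasminogen system differ between tumours that grew on a drug and untreated tumours.

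Plasminogen is the zymogen of plasmin, a protease that degrades fibrin and other matrix proteins. PLAU (urokinase) cleaves it mainly at the cell surface, where PLAUR, a glycolipid-anchored receptor, holds urokinase, while PLAT (tissue plasminogen activator) acts mainly on fibrin. SERPINE2 (protease nexin-1) and SERPINB2 block the activators, and ANXA2, in complex with S100A10, is a cell-surface receptor that brings plasminogen and PLAT together. Both lines lack a working VHL protein.

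Signals are the deposited linear probe set intensities. Every difference is of log2(signal + 16), so the change of a dim probe set is understated. A gene was called where the adjusted p of limma (Benjamini-Hochberg over 13808 genes) was under 0.05, and a probe set likewise over 26924 probe sets. The filter required a signal above 89.4 (log2 value 6.72) on at least 4 arrays. Nothing in the labels says whether tumours of a group came from separate passages of the cells, and p-values therefore speak only of the spread among the tumours at hand.

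Arrays of a group correlated with each other at r between 0.955 and 0.975 over all 41091 probe sets with 1 gene symbol, before the filter. Of 8 renal carcinoma markers, 7 had a probe set and all 7 had a median above the filter signal in every group. Among 10 endothelial markers, CDH5, KDR, VWF, TEK, EMCN, ESAM and ERG lay below it on every array. The ACTB 3-prime minus 5-prime difference, a measure of RNA quality, was between 0.0559 and 0.674 (log2) on 27 arrays and 1.03 on untreated replicate 5 of the 786-O sorafenib arm. The array titles of the 786-O sorafenib arm begin with the number 33 and all others with 35, so each resistant group shares that number with its own untreated group, whereas differences between the 786-O sorafenib arm and the others also cross it. What the number stands for is not stated. Between the untreated 786-O tumours of the 2 drug arms limma called 0.275% of all genes, 0 of the 5 genes of the set (0 also at an unadjusted p under 0.05) and 0 of their 12 probe sets.

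PLAUR, the urokinase receptor, was higher in resistant than in untreated 786-O tumours of both drug arms and was not called in A498. In the sorafenib arm its signals were 1440.2, 1629.55, 1408, 1748 and 1400.3 in resistant 786-O tumours, against 646, 480.4, 447, 702 and 564 in untreated ones. The groups did not overlap, and even the highest untreated tumour lay far below the lowest resistant one. In bulk tumours fewer cells of a type and less RNA per cell cannot be told apart, here or below. The difference was 1.41 ± 0.14 (SE; 2.67-fold, adjusted p = 3.23e-07). In the sunitinib arm the signals were 866, 1094, 1072 and 1052 in resistant tumours, against 477, 418, 644, 699 and 709.7 in untreated ones. These groups were apart as well, with replicate 1 the lowest of the resistant tumours, and the difference was 0.80 ± 0.15 (1.74-fold, adjusted p = 0.00354). In A498 the signals were 1341, 1101, 1526, 1484 and 1141 in resistant tumours, against 1126, 1388, 1284 and 1316 in untreated ones. The A498 groups overlapped throughout, with a difference of 0.04 and a 95% interval from -0.28 to 0.35 (adjusted p = 0.932).

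**Figure D1:**
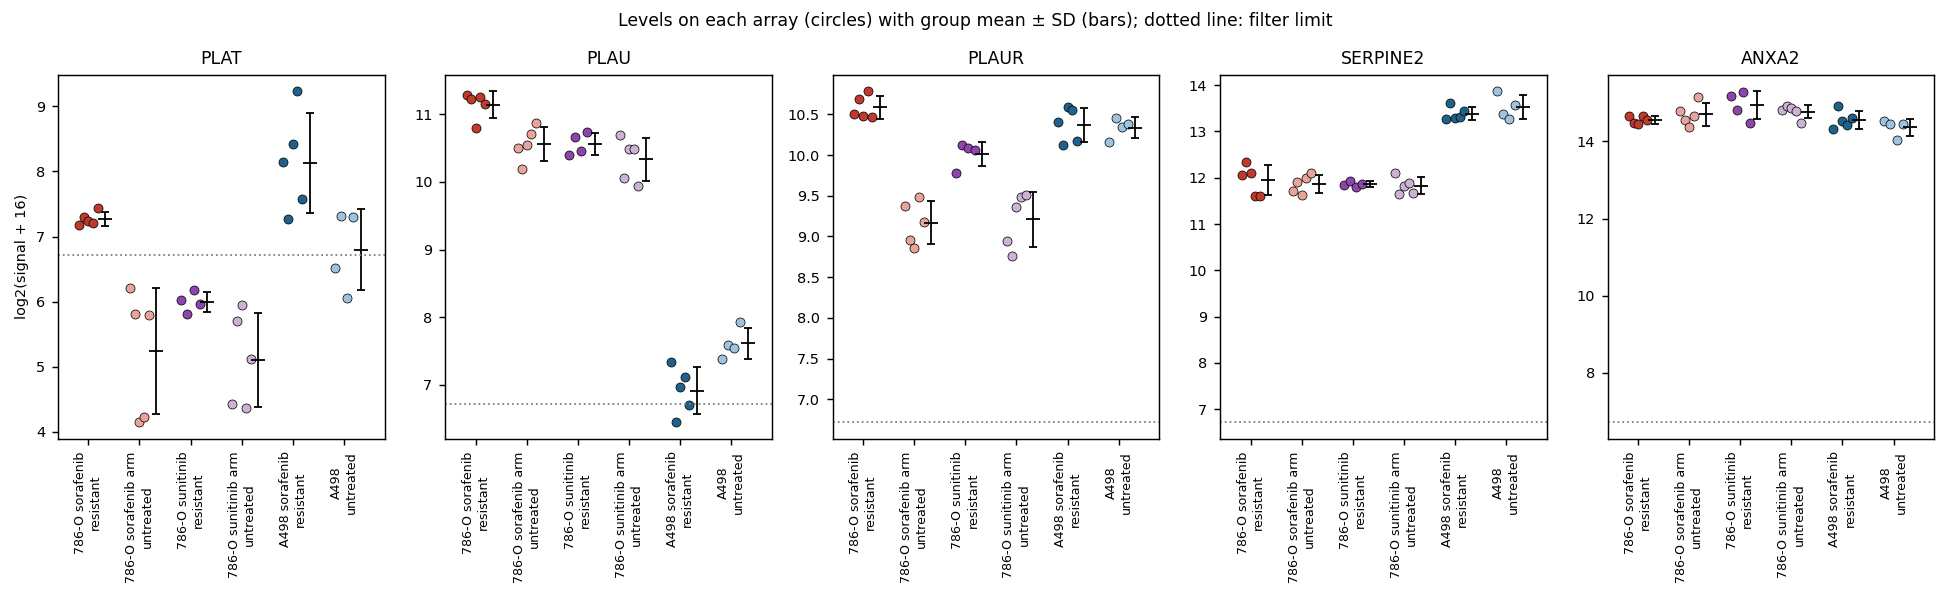
Level of each gene on every array (circles, log2(signal + 16), vertical axes differ between panels) in the 6 groups, with the mean and SD of each group as a bar and the filter limit of 6.72 as a dotted line. PLAUR is higher in both resistant 786-O groups than in their untreated groups, PLAU separates the lines, and PLAT in untreated 786-O tumours lies below the filter limit.

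The other PLAUR probe sets gave the same direction in 786-O, and neither was called in A498. For the probe set 211924_s_at the difference was 1.62 ± 0.16 in the sorafenib arm and 1.08 ± 0.16 in the sunitinib arm, both called. For 214866_at, the only PLAUR probe set whose ID carries no mark of possible cross-hybridisation (_s_at or _x_at), it was 1.08 ± 0.20 (adjusted p = 0.000605) in the sorafenib arm and 0.65 ± 0.21 (adjusted p = 0.0858) in the sunitinib arm. The call of PLAUR in the sunitinib arm ended when that probe set alone stood for the gene (adjusted p = 0.0818), and also when only the arrays of that arm were fitted (0.0543). On 214866_at the resistant sunitinib tumours had signals of 331, 578, 611 and 665, against 264, 214, 393, 377 and 464 in untreated ones, where replicate 1 of the resistant group was the single resistant tumour within the untreated range. In A498 the difference was 0.18 (95% interval from -0.16 to 0.52) on 211924_s_at and 0.33 (-0.11 to 0.76) on 214866_at. The interval of 214866_at in A498 includes its value of 0.65 in the 786-O sunitinib arm. Compared directly by limma, its 2 sorafenib effects differed by -0.75 ± 0.29 (A498 minus 786-O), which was not called over all probe sets (adjusted p = 0.167).

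The 250 bases before the annotated start were read from the RefSeq promoter table (GRCh38.p14), in which 5 of the 6 genes had 7 promoters. They are shown for PLAUR and PLAU, which were both called higher in sorafenib-resistant 786-O tumours, and for ANXA2, which was not. Motifs searched on both strands were AP-1 (TGANTCA), ETS (CCGGAA), the hypoxia response element core (ACGTG) and SP1 (GGGCGG). Different motifs do not share bases in these windows, whereas neighbouring SP1 matches of ANXA2 do. Capitals mark matches of AP-1 and SP1, each sequence runs 5′ to 3′ on the strand of the gene, and for PLAU the downstream of 2 annotated starts is shown.
PLAUR, chr19:43670170-43670419, minus strand: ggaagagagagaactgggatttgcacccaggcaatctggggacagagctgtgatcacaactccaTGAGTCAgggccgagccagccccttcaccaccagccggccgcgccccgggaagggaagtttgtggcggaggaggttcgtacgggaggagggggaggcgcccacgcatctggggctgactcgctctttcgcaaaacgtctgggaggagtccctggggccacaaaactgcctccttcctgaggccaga
PLAU, chr10:73910882-73911131, plus strand: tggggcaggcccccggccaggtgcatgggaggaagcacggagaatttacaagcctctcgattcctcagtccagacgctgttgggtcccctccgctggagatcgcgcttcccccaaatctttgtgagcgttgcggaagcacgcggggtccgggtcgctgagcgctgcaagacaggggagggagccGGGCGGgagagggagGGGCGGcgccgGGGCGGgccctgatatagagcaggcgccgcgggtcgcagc
ANXA2, chr15:60397987-60398236, minus strand: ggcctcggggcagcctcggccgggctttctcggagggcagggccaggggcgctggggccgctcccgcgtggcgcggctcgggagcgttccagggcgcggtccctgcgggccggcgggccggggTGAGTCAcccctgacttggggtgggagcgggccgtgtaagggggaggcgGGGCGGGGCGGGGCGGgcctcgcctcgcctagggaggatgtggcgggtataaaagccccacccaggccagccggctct
The PLAUR window held 1 AP-1 match, beginning 186 bases before the start, and the ANXA2 window 1, at 127 bases, while 6.57% of 35116 promoters held one. SP1 matches lay 66, 51 and 40 bases before the shown PLAU start and 78, 73 and 68 bases before that of ANXA2, a motif held by 42.6% of promoters. An ETS match, held by 14.5% of promoters, was in none of the 7 windows, and the hypoxia core, held by 18.5%, was in 1 SERPINE2 window. A further AP-1 match lay 102 bases before the start of SERPINB2, which was not analysed here. AP-1 matches were thus held by PLAUR, called in 786-O, and by ANXA2, whose lack of a call does not show an unchanged level. A match of letters is no evidence of binding, and any part of AP-1 in these differences was not tested.

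PLAU, urokinase itself, was higher in sorafenib-resistant than in untreated 786-O tumours and lower in sorafenib-resistant than in untreated A498 tumours. Its signals in the 786-O sorafenib arm were 2466, 2387, 1763, 2429 and 2264 in resistant tumours, against 1431, 1149, 1476, 1653 and 1861 in untreated ones. Resistant replicate 3 lay below the highest untreated tumour and the other 4 above all of them. The difference was 0.58 ± 0.17 (adjusted p = 0.0177), and without untreated replicate 2 the call was lost (0.49, adjusted p = 0.0572). The second PLAU probe set, 211668_s_at, showed 0.80 ± 0.17 (adjusted p = 0.00243) with no overlap between the groups. Both PLAU probe sets end in _s_at, the mark of possible cross-hybridisation.

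In the 786-O sunitinib arm PLAU had signals of 1333, 1607, 1391 and 1695 in resistant tumours, against 1631, 1052, 1425, 1421 and 963 in untreated ones. These groups overlapped, and the difference of 0.23 (95% interval from -0.13 to 0.59) did not pass the test (adjusted p = 0.516). In A498 the signals were 146, 71.3, 109.7, 122 and 88.3 in resistant tumours, against 151, 177, 171 and 229 in untreated ones. The A498 groups did not overlap, though 2 of the 5 resistant tumours lay below the filter signal and the highest resistant tumour was close to the lowest untreated one. PLAU was lower by -0.70 ± 0.18 in resistant A498 tumours (0.616-fold, adjusted p = 0.0168), and the other probe set gave -0.68 ± 0.18 (adjusted p = 0.0326) with overlapping groups. The call was lost without untreated replicate 4 (-0.59, adjusted p = 0.0726) and when only the A498 arrays were fitted (adjusted p = 0.0891). The second probe set kept its call in 3 of 9 fits without single tumours, and without untreated replicate 4 it was -0.43 (adjusted p = 0.154).

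**Figure D2:**
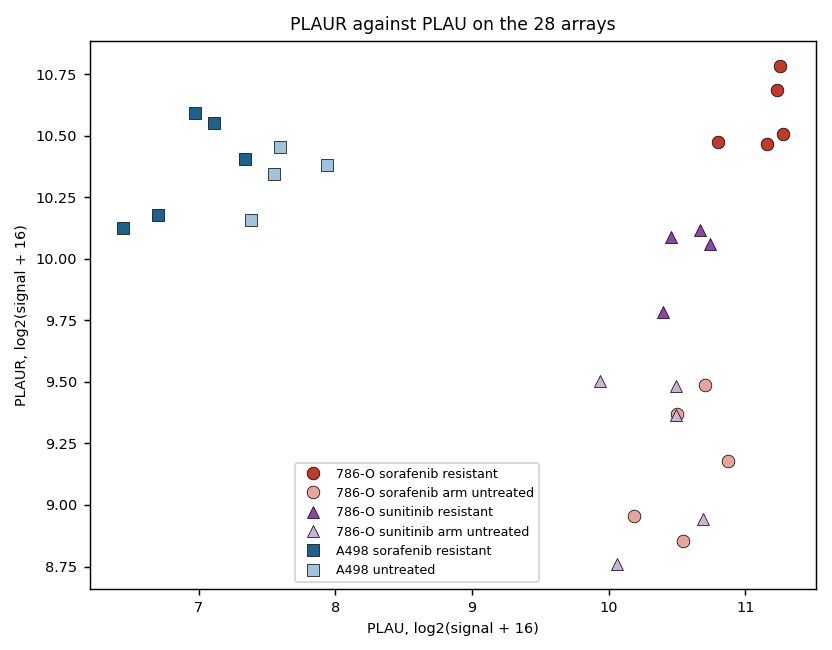
PLAUR (vertical) against PLAU (horizontal), both as log2(signal + 16), on the 28 arrays, with 1 marker shape per arm and the darker shade for resistant tumours. The A498 arrays lie apart at low PLAU, and within 786-O the sorafenib-resistant tumours lie highest on PLAUR.

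PLAT, the tissue activator, was read by 1 probe set, 201860_s_at, whose ID carries the mark of possible cross-hybridisation. The gene was called higher in sorafenib-resistant 786-O tumours and was dim in most groups. In that arm the signals were 128, 141, 134, 132 and 158 in resistant tumours, against 57.7, 40.4, 1.75, 2.86 and 39.5 in untreated ones. The groups were far apart, and every untreated tumour lay below the filter signal of 89.4. The difference was 2.03 ± 0.39 (adjusted p = 0.000807), and it was 3.12 with a pseudocount of 1 and 1.18 with one of 64, so its size depends on that choice. In the sunitinib arm PLAT had signals of 49.3, 40.1, 56.8 and 46.4 in resistant tumours, against 5.53, 36.3, 45.7, 4.56 and 18.8 in untreated ones. All of these were below the filter signal, the groups overlapped, and the difference of 0.88 ± 0.42 did not pass the test (adjusted p = 0.249).

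In A498, PLAT signals were 266, 138, 327, 586 and 175 in resistant tumours, against 75.7, 144, 50.5 and 141 in untreated ones. One resistant tumour lay within the untreated range and the other 4 above it. The difference of 1.33 ± 0.42 (95% interval from 0.47 to 2.19) missed the threshold (adjusted p = 0.0566), with an adjusted p between 0.00887 and 0.272 over the 10 alternatives that leave out no single array. The adjusted p passed with a pseudocount of 64 (0.00887), with a trended robust variance (0.0454) and without resistant replicate 2 (0.0363).

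SERPINE2, the protease nexin that inhibits urokinase, tissue activator and thrombin, did not differ detectably between resistant and untreated tumours in any of the 3 arms. Its differences were 0.08 (95% interval from -0.20 to 0.36) in the 786-O sorafenib arm, 0.03 (-0.27 to 0.33) in the sunitinib arm and -0.14 (-0.44 to 0.16) in A498, each as resistant minus untreated. In the sorafenib arm the 786-O signals ranged from 3109 to 5197 in resistant tumours and from 3137 to 4363 in untreated ones, so the groups lay over each other. The second probe set, 227487_s_at, had differences between -0.25 and 0.06 in the 3 arms.

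ANXA2, the plasminogen receptor subunit, likewise showed no called difference in any resistant group. The probe set that represents it had differences of -0.14 (95% interval from -0.45 to 0.17) in the 786-O sorafenib arm, 0.17 (-0.16 to 0.49) in the sunitinib arm and 0.19 (-0.14 to 0.52) in A498. Within groups this probe set moved with ribosomal protein genes at r = 0.98 (RPS14), and whether it responds at this brightness was not tested, so the lack of a call does not show an unchanged level. Its signals ranged from 22925 to 39718 in sunitinib-resistant 786-O tumours and from 22702 to 31117 in their untreated tumours. Of the 4 ANXA2 probe sets 3 end in _x_at, with differences of -0.17 to -0.14 in the 786-O sorafenib arm, 0.17 to 0.18 in the sunitinib arm and 0.19 to 0.25 in A498, whereas 1568126_at, with signals between 44.3 and 186 on all arrays, went the other way in both 786-O arms (0.15 and -0.38, neither called). S100A10, the partner of ANXA2, was not called in any arm either, with differences of 0.05 ± 0.13, 0.32 ± 0.14 and 0.19 ± 0.14 in the 786-O sorafenib, 786-O sunitinib and A498 arms, though the mean of its 2 probe sets was called in the first (0.34, adjusted p = 0.0439).

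Counted over the set, 3 of 5 genes were called higher and 0 lower (0 also at an unadjusted p under 0.05) in sorafenib-resistant 786-O tumours, where 15.2% of all genes were called, 5.97% higher and 9.18% lower. In 2 of the 5 (PLAT and PLAUR) the groups did not overlap, against 12.5% of all genes, and 6 of 12 probe sets were called, against 12% of all probe sets. The median difference of the 5 genes was 0.58, beside -0.05 over all genes. In sunitinib-resistant 786-O tumours 1 of 5 genes was called higher and 0 lower (2 and 0 at an unadjusted p under 0.05), against 5.06% of all genes called, 2.22% higher and 2.84% lower. One of the 5 (PLAUR) had groups that did not overlap, against 8.46% of all genes, and 2 of 12 probe sets were called, against 3.39%. The median of the 5 was 0.23, beside -0.01 over all genes.

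In sorafenib-resistant A498 tumours 0 of 5 genes were called higher by limma and 1 lower (1 and 1 at an unadjusted p under 0.05), against 6.34% of all genes called, 2.93% higher and 3.4% lower. PLAU was the single gene of the 5 whose groups did not overlap, against 9.14% of all genes, and its 2 probe sets were the 2 of 12 called, against 4.41% of all. The median of the 5 was 0.04, beside 0.03 over all genes. PLAU fell and PLAUR was not called in A498, where both rose in 786-O on the same drug, and with so few genes the counts describe these genes and no wider group.

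**Figure D3:**
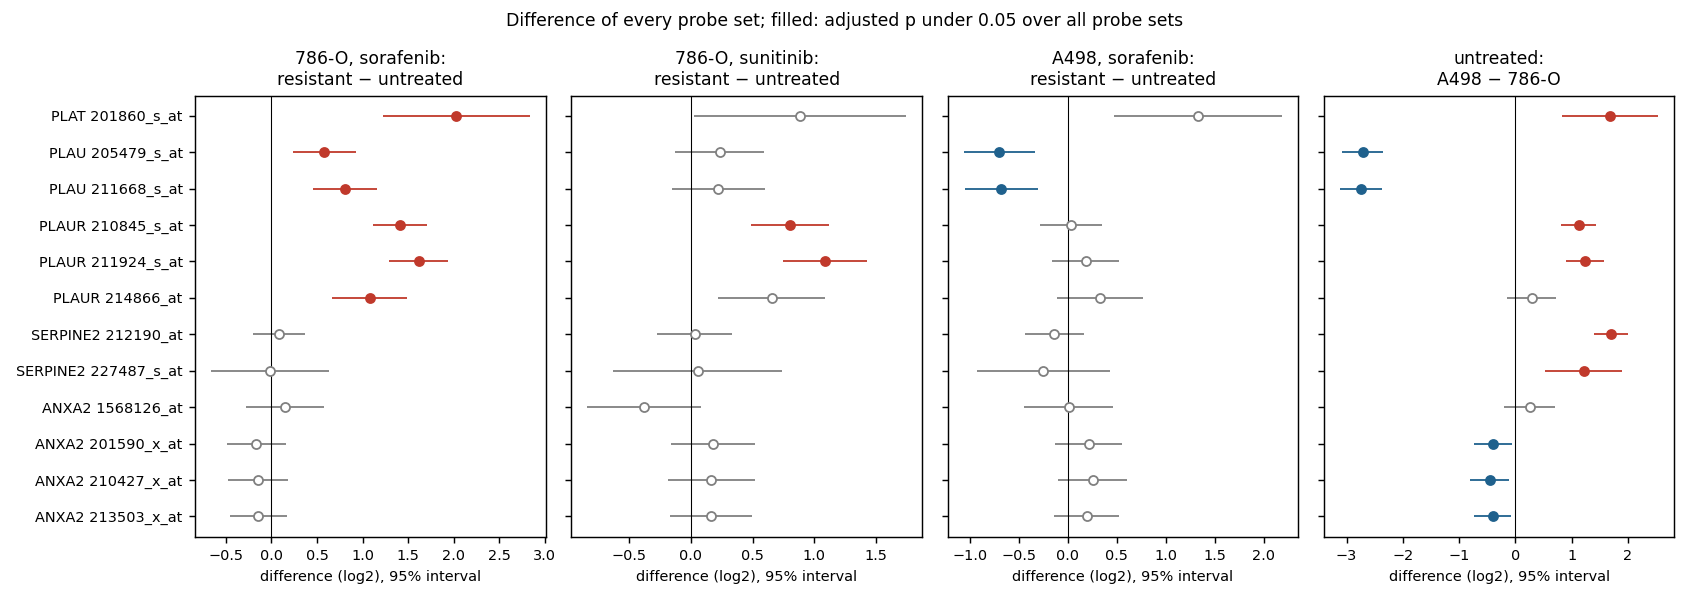
Difference (points, log2) and its 95% interval (lines) for each of the 12 probe sets, as resistant minus untreated in the 3 arms and as A498 minus 786-O in untreated tumours, with filled points called over all probe sets. The single PLAT probe set and all PLAU and PLAUR probe sets are called higher in the 786-O sorafenib arm. Both PLAU probe sets are called lower in the A498 arm. Between the lines the ANXA2 probe set 1568126_at lies on the other side of 0 from the other 3.

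The sorafenib effect itself differed between the lines for both urokinase and its receptor. The A498 difference minus the 786-O difference was -1.28 ± 0.24 for PLAU (adjusted p = 0.00267) and -1.38 ± 0.21 for PLAUR (adjusted p = 0.000439). Thus 2 of 5 genes were called lower in this comparison and 0 higher (0 also at an unadjusted p under 0.05), where 5.19% of all genes were called, 3.02% higher and 2.17% lower. For PLAUR the difference was -0.75 ± 0.29 on 214866_at alone and was then not called (adjusted p = 0.155 as the gene's only probe set). For PLAT the 2 sorafenib effects differed by -0.70 with an interval from -1.88 to 0.48 (adjusted p = 0.528), so a difference of either direction is possible.

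Between the drugs in 786-O, the sorafenib effect minus the sunitinib effect was 0.61 ± 0.21 for PLAUR (adjusted p = 0.155), 1.15 ± 0.57 for PLAT (adjusted p = 0.364) and 0.35 ± 0.24 for PLAU (adjusted p = 0.539). limma called 0 of the 5 genes, 1 of them (PLAUR) at an unadjusted p under 0.05, and 0.949% of all genes. That PLAT and PLAU were called in 1 arm and not in the other is thus no evidence that the arms differ.

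All 5 genes were called between the lines, though ANXA2 only in part of the fits tried, in a comparison in which 58% of all genes were called, 27.3% higher and 30.6% lower in A498. Untreated A498 tumours were set against the untreated 786-O tumours of the sunitinib arm, whose titles begin with the same number, and 3 genes were higher and 2 lower. In 4 of the 5 the groups did not overlap, against 47.4% of all genes, and 10 of 12 probe sets were called, against 52.9%. PLAU was 0.152-fold in A498 (-2.72 ± 0.18, adjusted p = 1.46e-12), with the signals 151, 177, 171 and 229 in A498 given above beside 963 to 1631 in 786-O. PLAUR was higher in A498 by 1.12 ± 0.15 (2.18-fold, adjusted p = 5.65e-07), yet 214866_at alone gave 0.29 ± 0.21 (adjusted p = 0.265), so the size of the receptor's line difference depends on the probe set.

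PLAT was higher in untreated A498 than in untreated 786-O tumours by 1.68 ± 0.42 (adjusted p = 0.00119), where every 786-O signal lay below the filter limit. SERPINE2 had signals of 14983, 10600.1, 9929 and 12250.5 in A498, against 4362, 3212, 3617, 3800.4 and 3267 in 786-O. No A498 tumour came near the 786-O range, and the difference was 1.70 ± 0.14 (3.24-fold, adjusted p = 2.44e-10), with 1.22 ± 0.33 on the second probe set. ANXA2 was lower in A498 by -0.41 ± 0.16 (adjusted p = 0.0309) with overlapping groups, but 1568126_at gave 0.25 ± 0.22 in the other direction, and the call was lost as the mean of its probe sets (-0.25, adjusted p = 0.143) and against the untreated 786-O tumours of the sorafenib arm (-0.33, adjusted p = 0.0724). With single tumours left out it was kept in 5 of 9 fits, and lost without A498 replicate 3 (-0.30, adjusted p = 0.136) and without 786-O replicates 1 (0.051), 2 (0.0672) and 3 (0.059). Bright genes most like ANXA2 over the arrays were lower in A498 as well. Mean signals in these untreated 786-O and A498 groups were 29413 and 22457 for RPS24 and 32287 and 24006.5 for VIM. Whether ANXA2 differs between the lines apart from this shared shift was not tested.

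Ordered by mean log2 level, with mean signals in parentheses, PLAUR ran from the untreated 786-O groups (signals of 568 in the sorafenib and 589.5 in the sunitinib arm) over sunitinib-resistant 786-O (1021), untreated A498 (1279) and sorafenib-resistant A498 (1318) to sorafenib-resistant 786-O tumours (1525). Both untreated 786-O groups overlapped, as did the 3 highest groups with their neighbours, and sunitinib-resistant 786-O tumours overlapped with neither neighbour. PLAU ran from resistant A498 (108) and untreated A498 (182) over untreated 786-O of the sunitinib arm (1299), untreated 786-O of the sorafenib arm (1514) and sunitinib-resistant 786-O (1507) to sorafenib-resistant 786-O (2262). The 3 middle 786-O groups overlapped with each other by neighbour, whereas both A498 groups stood apart. PLAT ran from untreated 786-O of the sunitinib arm (22.2) to sorafenib-resistant A498 tumours (298), and all neighbours overlapped. SERPINE2 had 4 overlapping 786-O groups between 3652 and 4016 and 2 overlapping A498 groups at 10737 and 11941. All 6 ANXA2 groups overlapped with their neighbours.

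The genes whose pattern was most like a member's were found by Pearson correlation over the 28 arrays, which share the 6 groups and 2 lines, as a description. For PLAUR these were CIB1 (r = 0.90), LHFPL2 (0.89) and PPP1R15A (0.88), and within groups, as deviations from the group means, ACKR3 (0.72), CIB1 (0.71) and CENPL (0.68). CIB1, a calcium- and integrin-binding protein, had a mean signal of 11050.5 in sorafenib-resistant 786-O tumours, against 6031 in untreated ones. For PLAT they were the collagen-binding integrin subunit ITGA2 (0.87), CDCP1 (0.86) and the desaturase SCD (0.85), and for PLAU SLC35F2, ICMT and TNFRSF9 (0.98 each). For SERPINE2 they were C8G, CAPN6 and HSD17B11 (0.97 each), and PLAU and SERPINE2 themselves ran opposite (r = -0.92), where the arrays fall into 2 lines. ANXA2 was most like RPS24 (0.98), VIM (0.98) and RPL37 (0.97), and within groups like the ribosomal protein genes RPS14, RPL7 and RPS24 (0.98 each). PLAU and PLAUR correlated at r = 0.36 as deviations from group means, so tumours of a group that were high in one were only weakly high in the other.

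Of 59 other genes of the system in 6 lists, 55 had a probe set of their own and 50 passed the filter. In sorafenib-resistant 786-O tumours 13 of the 50 were called higher and 4 lower, in sunitinib-resistant ones 5 and 1, and in sorafenib-resistant A498 tumours 4 and 1. Between the untreated lines 14 were called higher and 14 lower in A498. These counts can be read against the shares of all genes given above. Plasminogen itself (PLG) was measured and did not pass the filter.

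Among 6 inhibitors that passed, 2 were called lower and 0 higher (0 also unadjusted) in sorafenib-resistant 786-O tumours. Of all genes 9.18% were called lower and 5.97% higher there, and the list median was -0.45 beside -0.05 over all genes. SERPINF2, the plasmin inhibitor alpha-2-antiplasmin, had a mean signal of 133.4 ± 25.0 in resistant and 234 ± 67.8 in untreated tumours (SD, n = 5 each), a difference of -0.72 ± 0.20 (adjusted p = 0.0179), and was lower also in the sunitinib arm (-1.01 ± 0.22, adjusted p = 0.00768). SERPINI1, neuroserpin, an inhibitor of PLAT, was lower by -1.28 ± 0.42 in the sorafenib arm (adjusted p = 0.0375), and its call was lost under 6 of 11 alternatives. In A498 limma called 0 of the 6 (0 at an unadjusted p under 0.05). Between the untreated lines SERPING1, the C1 inhibitor, was higher in A498 by 4.74 ± 0.46, with a mean signal of 824 ± 500.2 against 10.3 ± 10.2 in 786-O (SD, n = 4 and 5), and SERPINI1 by 1.14 ± 0.44.

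Among 5 genes that passed on the list of enzymes acting on the zymogens, CTSB, the lysosomal cathepsin B that can activate pro-urokinase, was called higher in both 786-O arms. Its mean signal was 14230.5 ± 1880.2 in sorafenib-resistant and 7047 ± 649 in untreated tumours (SD, n = 5 each), without overlap, a difference of 1.01 ± 0.12 (adjusted p = 4.04e-06). In the sunitinib arm it was higher by 0.52 ± 0.13 (adjusted p = 0.0226), a call lost when only that arm was fitted (0.125). KLKB1, plasma prekallikrein, was lower by -0.94 ± 0.32 in the sorafenib arm from signals below the filter limit, and its adjusted p of 0.0489 passed under only 2 of 11 alternatives. The sorafenib effect on CTSB differed between the lines by -0.68 ± 0.18 (adjusted p = 0.0299), A498 minus 786-O. In untreated tumours the membrane proteases PRSS8 (3.73 ± 0.38) and HPN (2.90 ± 0.30) and the contact factor F12 (2.44 ± 0.18) were higher in A498 than in 786-O. Of the 5 genes, 3 were called higher and 1 lower in that comparison, where 27.3% and 30.6% of all genes were.

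Of 5 other plasminogen receptors and partners, S100A10 among them, AHNAK, which binds the ANXA2 and S100A10 complex, was higher in sorafenib-resistant 786-O tumours by 0.43 ± 0.10 (adjusted p = 0.00299), and KRT8, which binds plasminogen as surface keratin, was lower in sorafenib-resistant A498 tumours by -0.44 ± 0.12 (adjusted p = 0.0292). Between the untreated lines AHNAK (-1.40 ± 0.10) and ENO1 (-0.58 ± 0.11) were lower and KRT8 higher (1.21 ± 0.12) in A498.

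Among 11 clearance receptors and surface partners of PLAUR, the integrin subunits ITGA3 and ITGA5 were called higher in both 786-O arms. ITGA3 had mean signals of 3340.4 ± 526 in sorafenib-resistant and 1554 ± 279 in untreated tumours (SD, n = 5 each; 1.10 ± 0.16, adjusted p = 2.14e-05), and 0.56 ± 0.17 in the sunitinib arm (adjusted p = 0.0486), where 5 of 11 alternatives lost the call. ITGA5 was higher by 0.53 ± 0.15 and 0.64 ± 0.16 in the sorafenib and sunitinib arms, and MRC2, the endocytic partner of PLAUR, by 0.89 ± 0.24 in the sunitinib arm (adjusted p = 0.0326). In A498 limma called 0 of the 11, with 4 higher and 3 lower at an unadjusted p under 0.05. In untreated tumours 8 of the 11 were lower in A498 than in 786-O, where 30.6% of all genes were, led by MRC2 (-3.09 ± 0.24) and ITGA5 (-0.99 ± 0.16), and 1 was higher, the clearance receptor LRP2 (2.13 ± 0.54).

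**Figure D4:**
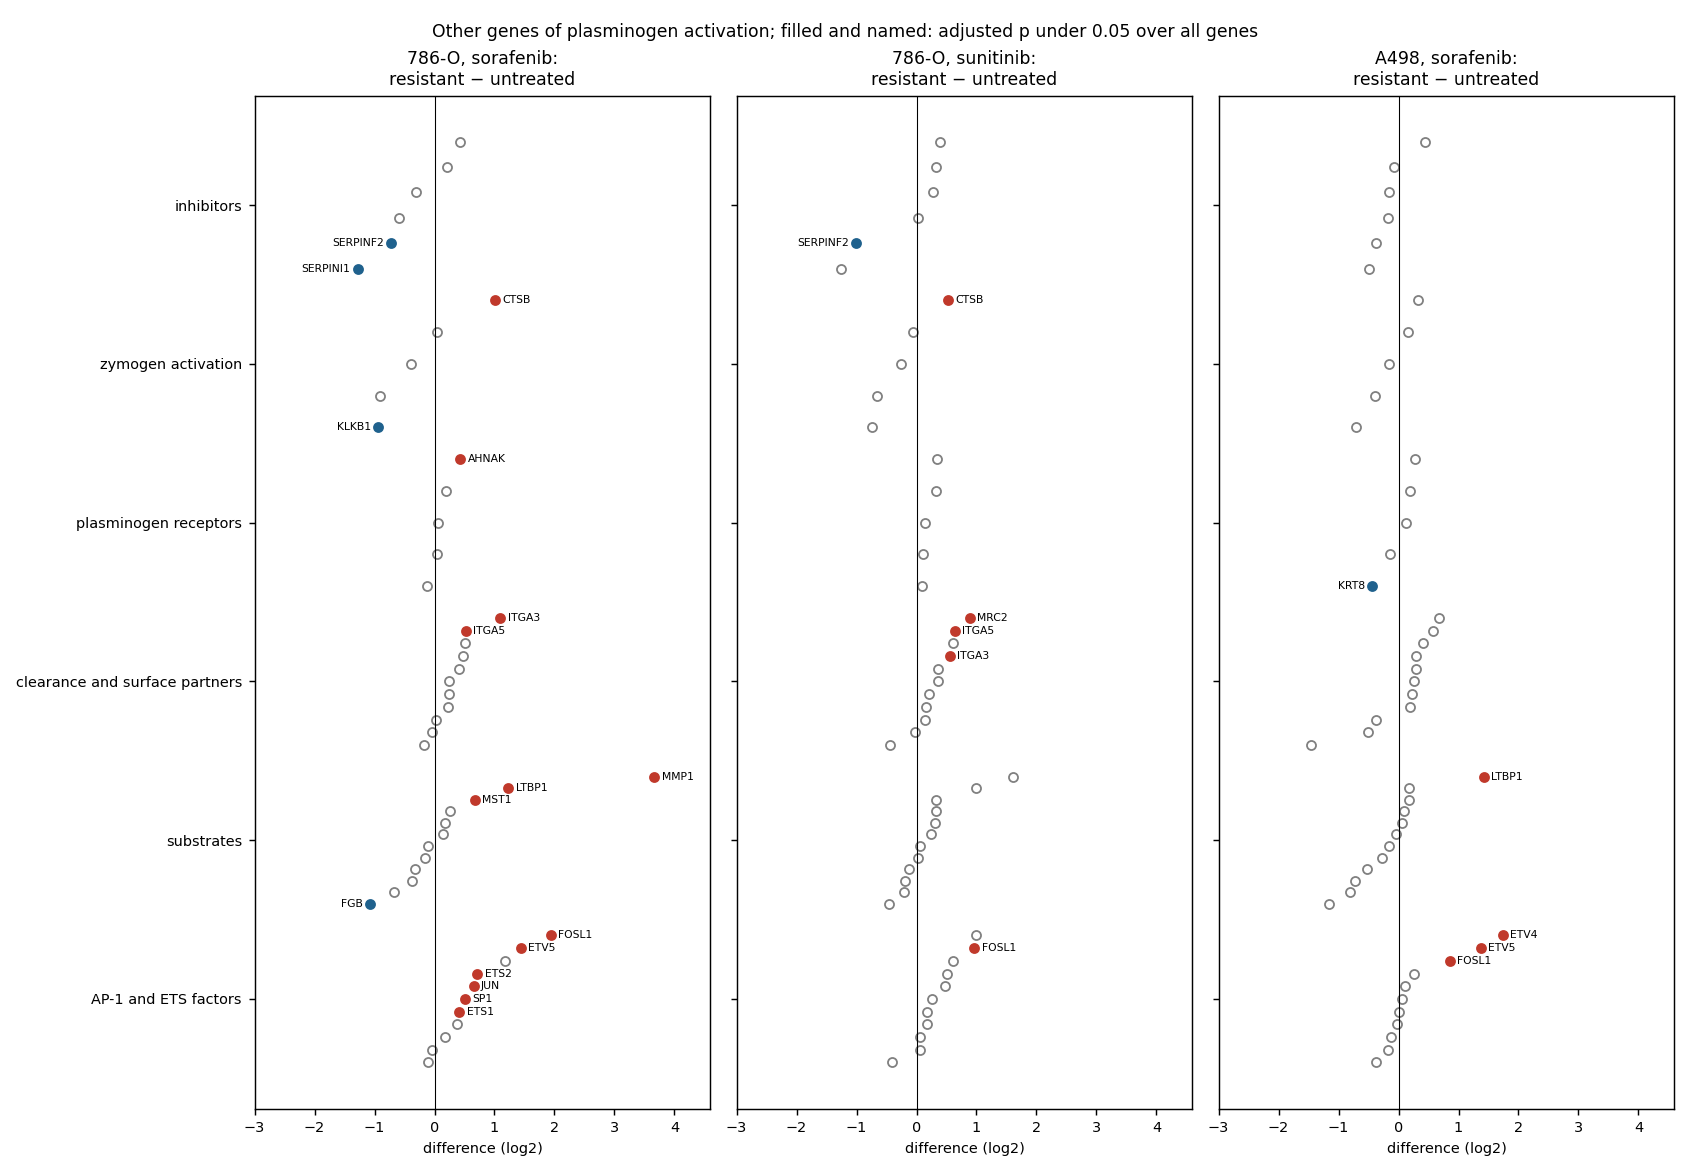
Difference (log2, resistant minus untreated) of the 50 other genes in 6 lists for the 3 arms, 1 point per gene, with called genes filled and named. CTSB, ITGA3 and ITGA5 are called higher in both 786-O arms, and FOSL1 in all 3 arms.

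Of 12 substrates of the activators and of plasmin that passed, MMP1, a collagenase whose zymogen plasmin cleaves, had a difference of 3.67 ± 0.49 in sorafenib-resistant 786-O tumours (adjusted p = 9.39e-06). LTBP1, which tethers latent TGF-beta and is released by plasmin, was higher in the sorafenib arms of both lines, by 1.23 ± 0.30 in 786-O (adjusted p = 0.00556) and 1.42 ± 0.32 in A498 (adjusted p = 0.00758), with overlapping groups in both. FGB, a fibrinogen chain, was lower by -1.07 ± 0.37 in the 786-O sorafenib arm (adjusted p = 0.0498), with signals below the filter limit in all resistant tumours and a call that held under 3 of 12 alternatives. In the sunitinib arm limma called 0 of the 12, with 2 higher and 1 lower at an unadjusted p under 0.05. Between the untreated lines the fibrinogen chains FGB (8.34 ± 0.39), FGA (6.73 ± 0.52) and FGG (3.79 ± 0.54) were higher in A498, where the FGA value was 0.79 and not called (adjusted p = 0.0774) with probe sets ending in _x_at and _s_at left out. Of the 12 genes, 5 were called higher and 2 lower in A498 in that comparison.

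Of 12 AP-1, ETS and SP1 transcription factors 11 passed the filter, and FOSL1 was called higher in all 3 arms. Its mean signals were 907 ± 122 in sorafenib-resistant and 224 ± 35.6 in untreated 786-O tumours (SD, n = 5 each; 1.95 ± 0.20, adjusted p = 3.75e-07). In the sunitinib arm they were 503 ± 196 in resistant and 238 ± 47.6 in untreated tumours (n = 4 and 5; 0.97 ± 0.21, adjusted p = 0.00866). In the A498 sorafenib arm they were 227 ± 49.6 in resistant and 119.8 ± 34.6 in untreated tumours (n = 5 and 4; 0.85 ± 0.21, adjusted p = 0.0159). The sunitinib call was lost without resistant replicate 3 (adjusted p = 0.053) and the A498 call without untreated replicate 4 (0.0703). FOSL1 was thus called in A498, where PLAUR was not, and its effect there was smaller than in 786-O by -1.09 ± 0.29 (adjusted p = 0.0275). In all, 6 of the 11 were called higher in the 786-O sorafenib arm, where 5.97% of all genes were, ETV5 (1.44 ± 0.15) and ETS2 (0.72 ± 0.17) among them. In the sunitinib arm 1 was called higher, against 2.22% of all genes, and in A498 3, against 2.93%. Besides FOSL1, those in A498 were ETV4 (1.74 ± 0.39) and ETV5 (1.38 ± 0.16). In the 786-O sorafenib arm ETS2 was 0.36 as the mean of its probe sets (adjusted p = 0.119) and 0.51 without the 2 arrays of highest ACTB difference (0.0653), not called in either. With probe sets ending in _x_at and _s_at left out ETV5 was not called in A498 (1.02, adjusted p = 0.216). Between the untreated lines FOS (2.68 ± 0.52) and ETS2 (0.78 ± 0.18) were higher and FOSL1 (-0.92 ± 0.21) lower in A498.

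Several of these calls rested on the shared estimate of spread or on single tumours. Fitted on the arrays of their own arm alone, SERPINF2, CTSB, MRC2, ITGA3, ITGA5 and FOSL1 were not called in the 786-O sunitinib arm (adjusted p between 0.0639 and 0.125), nor KRT8, LTBP1, ETV4 and FOSL1 in A498 (0.0566 to 0.165). With 1 of 9 tumours left out in turn, the sunitinib arm kept the call of CTSB in 4 of 9 fits, of MRC2 in 3 and of ITGA3 in 1, and A498 that of KRT8 in 5. In the 786-O sorafenib arm SERPINF2 was not called without untreated replicate 1 (adjusted p = 0.0591) or resistant replicate 5 (0.0602), ITGA5 without resistant replicate 1 (0.0563), or AHNAK as the mean of its probe sets (0.156).

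Of 10 fibroblast and pericyte markers 8 passed the filter, and 6 of the 8 were lower in sorafenib-resistant 786-O tumours, where 9.18% of all genes were. The summed signal of all 10 lay between 1902 and 3704 in resistant tumours and between 6738 and 9829 in untreated ones. In the sunitinib arm it lay between 2151 and 5470.1 in resistant and 3391 and 6959 in untreated tumours, with 1 of 8 lower, and in A498 between 9964 and 23926 in resistant and 6378 and 15567 in untreated tumours, with 0 of 8 called by limma (2 higher and 0 lower at an unadjusted p under 0.05). PDGFRB, a pericyte marker, was below the filter signal on every array of 5 groups and LUM on every array of 5. Of 10 endothelial markers 2 passed, of which 1 was lower in sorafenib-resistant 786-O tumours. The summed signal of all 10 there was 229.6 to 527, against 452 to 597 in untreated tumours. Of 10 macrophage markers 8 had a probe set and 4 passed, with CD14, CD163, MRC1 and TYROBP below the filter signal on every array, and 1 of the 4 was lower in sorafenib-resistant 786-O tumours. Of 6 keratinocyte markers 5 had a probe set and 1 passed, with 0 called by limma in the 3 arms (0 also at an unadjusted p under 0.05). As the stroma is of mouse origin and the probes are human, which cells gave these marker signals is not known. The part of any such cells in the differences of the plasminogen genes was not tested.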

How the data were processed

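Total RNA of 28 frozen xenograft tumours, extracted with Trizol per the labels' protocols, was hybridised to 1 array each. The deposited values are linear signal intensity values per probe set, whose 2% trimmed mean was 500.1 on every array. Per the submitters' processing notes RMA and MAS5 were used, with neither step nor version given in the sources used here. Signals ranged from 0.0875 to 64034.6, and array medians from 79.7 to 99.4.

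Of 54675 probe sets, 41091 had 1 gene symbol, 1801 several and 11721 none, beside 62 controls. Symbols were updated through Entrez IDs for 41037 and kept for 54. The probe set with the highest mean stood for its gene, and single-symbol probe sets were also modelled one by one. The model of log2(signal + 16) had a coefficient for each of the 6 groups and used limma 3.58.1 (R 4.3.3), tested on simulated data. Groups came from the labels. The members and lists were chosen with earlier results of these data known. Named were all members, S100A10, the called genes of each list (at most the 3 largest per comparison) and the 3 genes most like each member; probe sets that stood apart and the interaction values of list genes were picked after their values were seen. Other settings comprised pseudocounts of 1 and 64, no filter or one at the 75th percentile, probe set means, leaving out _x_at and _s_at probe sets, median centring, quantile normalisation, only the arrays compared, a trended robust variance, array weights, other untreated 786-O tumours, dropping the 2 arrays with the largest ACTB difference, and dropping each array in turn. SERPINB2, SERPINB6 and VTN were not analysed here for want of a single-symbol probe set, and CPB2, PLG, ST14, MMP3 and FOSB did not pass the filter. In the setting without _x_at and _s_at probe sets, genes that have only such probe sets kept them. Plots used matplotlib 3.10.9.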

Additional observations from a re-analysis of the deposited data

Results flagged for a closer look

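Among 30 groups of arrays (5 genes in 6 groups) tested by Dixon's test at the 95% level, which flags about 1 in 20 groups by chance, 3 had an array far from the others. For PLAU this was sorafenib-resistant 786-O replicate 3, with a signal of 1763 where the other 4 resistant tumours had 2264 to 2466 (ratio 0.745). For PLAUR it was sunitinib-resistant 786-O replicate 1, with a signal of 866 beside 1052 to 1094 (ratio 0.8301). For ANXA2 it was untreated replicate 5 of the 786-O sunitinib arm, with a signal of 22702 beside 28402 to 31117 (ratio 0.7104). All ratios were taken from log2 levels, not from the signals printed here. The PLAUR and ANXA2 ratios were only just above the critical value. Ratios of the signals themselves would lie below it for PLAUR and ANXA2, so these flags depend on the scale.

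For 2 genes the effect of sorafenib resistance differed between the lines by the interaction test of limma. The A498 difference minus the 786-O difference was -1.28 for PLAU, which was lower in resistant A498 and higher in resistant 786-O tumours, and -1.38 for PLAUR, which was not called in A498 and higher in resistant 786-O tumours. This comparison also crosses the numbers 35 and 33 that open the array titles, and the line and that number cannot be told apart.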

How the results depend on the processing

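No paired analysis was possible because the replicate numbers follow the order of deposition and the labels tie no tumours together across groups. The count of members called in the 786-O sorafenib arm stayed within 1.5 times its value of 3 under all alternatives, and the other counts moved only as follows. In the 786-O sunitinib arm it was 0 without _x_at and _s_at probe sets and with only the arrays compared. In A498 it was 2 with a pseudocount of 64 and with a trended robust variance and 0 with only the arrays compared, and leaving out 1 array gave 0 (untreated replicate 4) to 2 (resistant replicate 2). Without _x_at and _s_at probe sets it was 3 between the untreated lines and 1 for the A498 minus the 786-O sorafenib effect. PLAT and PLAU have only _s_at probe sets, which were kept in that setting, so it could not test these genes in any arm. The cause of these moves was not tested.

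Signs turned for values near 0 and for ANXA2. Without _x_at and _s_at probe sets ANXA2 was 0.147 (786-O sorafenib), -0.378 (786-O sunitinib), 0.254 (lines), 0.525 (sorafenib minus sunitinib effect) and -0.140 (A498 minus 786-O effect). PLAUR in A498 was -0.0599 with median centring and 0.329 without _x_at and _s_at probe sets, and ranged from -0.0236 to 0.0965 when single arrays were left out. SERPINE2 ranged likewise from -0.0167 to 0.168 in the 786-O sorafenib arm, from -0.0132 to 0.0967 in the sunitinib arm and from -0.0473 to 0.137 for the sorafenib minus sunitinib effect, which was -0.0102 as the mean of its probe sets. S100A10 in A498 was -0.0258 with quantile normalisation. The ANXA2 probe set 1568126_at in A498 was -0.0881, -0.0640 and -0.0746 with median centring, quantile normalisation and array weights, and ranged from -0.120 to 0.0835 without single arrays and from -0.0470 to 0.238 in the 786-O sorafenib arm. The SERPINE2 probe set 227487_s_at in the 786-O sorafenib arm was 0.0483, 0.0711, 0.0818, 0.0259 and 0.161 with a pseudocount of 1, median centring, quantile normalisation, array weights and without the 2 arrays of highest ACTB difference, and without single arrays it ranged from -0.365 to 0.161 there and from -0.0844 to 0.297 in the sunitinib arm. With median centring the median of all genes was -0.11 for the A498 minus 786-O effect, against 0.07 without it.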
